A study of Mus musculus with 18 samples.

Results

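The Nr4a genes encode a family of orphan nuclear receptors, and its members Nr4a1 (Nur77), Nr4a2 (Nurr1) and Nr4a3 (Nor1) were taken by symbol from a table of 24537 genes. All 3 were listed, and all 3 had enough counts to be among the 11651 genes tested. The libraries came from mouse CD8+ T cells that were isolated naive, given a CRISPR ribonucleoprotein and activated through CD3 and CD28. Cells labelled WT had a scrambled guide and cells labelled Nur77-KO (KO here) a synthetic guide kit against Nr4a1. Each kind was kept overnight with no lithocholic acid (LCA, which gut bacteria make from a primary bile acid), with 10 µM LCA (LCA10) or with 50 µM LCA (LCA50). The 6 groups, WT control, WT LCA10, WT LCA50, KO control, KO LCA10 and KO LCA50, held 3 libraries each, 18 in all. The labels give no strain or age of mouse, no editing efficiency, and no statement that replicates were separate animals or cultures. The p-values therefore rest on the spread among libraries, and that spread may be technical only.

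NR4A proteins bind DNA through a zinc finger domain that the family shares. Their ligand-binding pocket is filled with bulky side chains, so their activity follows mainly from how much protein is made. In T cells they are immediate early genes, switched on within hours by antigen receptor signals through calcium, calcineurin and NFAT, through MEF2, and through CREB, and they fade as the stimulus fades. Nr4a1 is widely used as a reporter of receptor signal strength, and the 3 members are known to act in overlapping ways in T cell tolerance and exhaustion. The design allows the response to LCA to be compared with and without a guide against Nur77.

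The proximal promoters are shown because all 3 carry repeated copies of TGACG, the core of the cAMP response element that CREB-family factors bind. The stretches below come from RefSeq (build GRCm38.p6) and end before the first exon that GENCODE M21 annotates in the window. They are Nr4a1, plus strand, chr15:101266596-101266845, Nr4a2, minus strand, chr2:57124004-57124253, and Nr4a3, plus strand, chr4:48045055-48045152. Capitals mark TGACG on the printed strand or, read as CGTCA, on the other strand.
Nr4a1: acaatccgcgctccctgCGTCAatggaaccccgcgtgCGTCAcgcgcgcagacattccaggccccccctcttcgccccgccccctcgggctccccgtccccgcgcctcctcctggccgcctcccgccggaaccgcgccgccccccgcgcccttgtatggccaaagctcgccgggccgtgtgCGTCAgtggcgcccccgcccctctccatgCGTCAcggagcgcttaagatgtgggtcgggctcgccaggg
Nr4a2: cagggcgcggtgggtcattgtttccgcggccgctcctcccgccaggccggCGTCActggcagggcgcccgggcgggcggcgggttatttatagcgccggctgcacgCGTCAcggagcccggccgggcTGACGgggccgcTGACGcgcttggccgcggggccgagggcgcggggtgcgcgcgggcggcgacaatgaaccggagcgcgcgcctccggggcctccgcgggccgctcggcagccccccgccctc
Nr4a3: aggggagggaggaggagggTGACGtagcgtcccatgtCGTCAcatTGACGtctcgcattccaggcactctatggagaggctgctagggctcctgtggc
Over the whole RefSeq window, from 250 bases before the start of transcription to 50 after it, each gene held 4 matches. In Nr4a3 the fourth lies in the first exon annotated by GENCODE, outside the printed part. Of 32851 RefSeq promoter windows of the same 300 bases, 20.8% held at least 1 match on either strand and 0.231% held at least 4. The windows of Nr4a1, Nr4a2 and Nr4a3 were 72.3, 81.7 and 64.7% G and C, against a median of 52.7% over all windows, and the motif itself holds a CG pair. In Nr4a1 all 4 matches lie within TGCGTCA, a near relative of the element, which 2.12% of windows held. Only 1 of the 32851 windows held 4 copies of TGCGTCA, and it was that of Nr4a1. The count of 4 is the number seen in Nr4a1 itself, so this is a description and not a test.

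**Figure D1:**
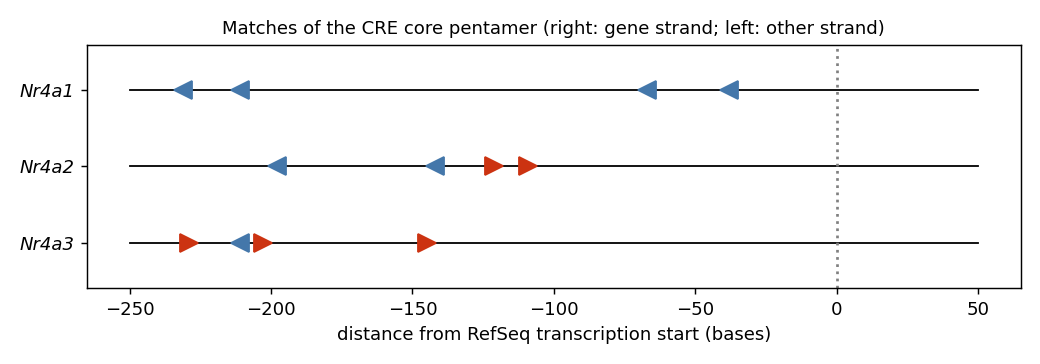
Positions of the TGACG core in the promoter windows of Nr4a1, Nr4a2 and Nr4a3, in bases from the RefSeq start of transcription (dotted line). Triangles pointing right are matches on the gene's strand and those pointing left on the other strand, and each gene has 4.

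The full palindrome TGACGTCA was in none of the 3 windows and in 1.79% of all windows. Nor did any of the 3 hold AAAGGTCA, the monomer element to which NR4A proteins themselves bind (1.51% of all windows), or the CArG box of serum response factor (1.63%). The Nr4a1 window held 1 copy of GCGGGGGCG, the element of EGR factors, on the other strand (2.91% of all windows). The Nr4a2 window held 1 stretch that matched the MEF2 motif on both strands (3.19% of all windows). These are matches of letters and not measured binding sites.

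Libraries held from 4113713 to 5945518 counts, and Nr4a counts were low in all of them, so precision was limited by counting as well as by the spread between libraries. Nr4a1 had 29 to 84 counts per library, Nr4a2 21 to 73 and Nr4a3 18 to 68. The T cell genes Cd8a (499 to 666 CPM, counts scaled to library size) and Lck (1040 to 1510) were high in every library. Of 4 markers of CD4 T cells, Cd4 was at most 1.29 CPM and Cd40lg at most 1.9, while Foxp3 stood at 9.16 to 18.9 and Zbtb7b at 0.195 to 20 CPM. Reads on 1470 olfactory, vomeronasal and trace amine receptor genes, which T cells should not express, made up 47.2 to 223 CPM of a library. The highest levels of this receptor background were in WT LCA50 replicate 3 (223 CPM) and KO LCA50 replicate 1 (164 CPM). In WT it ran from 121 to 223 CPM with LCA50 and from 50.4 to 108 CPM in control, without overlap. In KO these ranges overlapped (47.2 to 164 and 94 to 113 CPM). As a covariate, below, it therefore also takes up part of the LCA50 dose in WT. Counts of cells and RNA per cell cannot be told apart in these bulk libraries.

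In the 10 comparisons fitted, none of the 3 genes passed the test. LCA50 was not compared with LCA10. A change is a log2 fold change with its standard error, tested by the quasi-likelihood method of edgeR, and a gene is called below a Benjamini-Hochberg adjusted p of 0.05 over all genes tested. Of the 30 tests of a member in a comparison, 0 were called by edgeR and 0 by DESeq2, while 6 had an unadjusted p under 0.05 with edgeR and 6 with DESeq2. The 6 with edgeR were 5 tests of Nr4a3 and 1 of Nr4a2. Of all tested genes, 8.69, 8.39, 13.5 and 15.4% had such a p for KO against WT in control, LCA10 and LCA50 cells and averaged over doses. The shares for LCA10 and LCA50 were 7.8 and 22.2% in WT, 7.81 and 18.9% in KO, and 3.28 and 6.26% for the differences of responses. Among all tested genes, edgeR called 0.627% for KO against WT in control cells, 0.661% at LCA10, 1.94% at LCA50 and 5.15% averaged over doses. For LCA10 against control it called 0.386% in WT and 0.326% in KO, and for LCA50 against control 8.58% in WT and 6.35% in KO. For the difference between KO and WT responses it called 0.0% at either dose. Of 21 pairs of groups compared for a member, 4 did not overlap, all described below. Of all tested genes, the shares without overlap, higher and lower, were 8.35 and 7.51% for KO against WT in control cells, 7.59 and 6.56% at LCA10, and 8.37 and 7.51% at LCA50. They were 6.81 and 7.07% for LCA10 in WT, 13.1 and 13.7% for LCA50 in WT, 7.75 and 7.24% for LCA10 in KO, and 11.5 and 11.9% for LCA50 in KO. A missed threshold does not show equal levels, and the 95% intervals below give what these libraries leave possible.

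**Figure D2:**
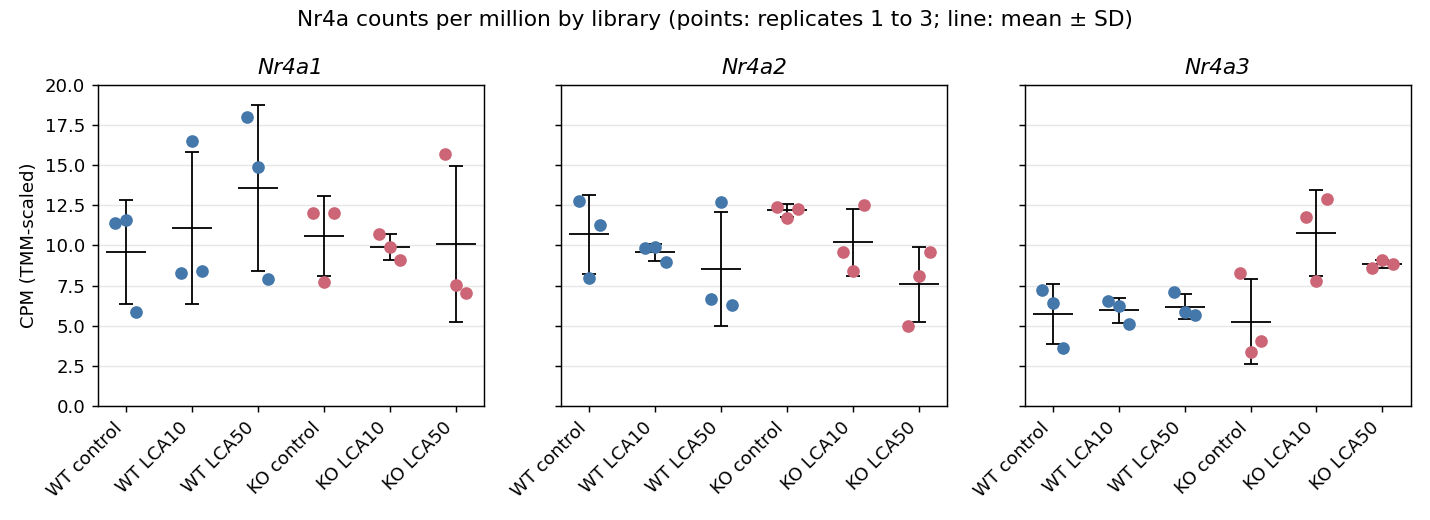
Level of each Nr4a gene in CPM (linear axis, libraries scaled by TMM) in the 6 groups, with WT in blue and KO in red. Points are the 3 libraries of a group and lines the mean ± SD. Nr4a3 averages 5.25, 10.8 and 8.84 CPM in KO control, LCA10 and LCA50 and 5.75, 5.97 and 6.18 CPM in WT.

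Nr4a1, the gene the guide targets (chromosome 15, 101254269 to 101274795, GRCm38), was not lower in KO than in WT beyond the spread between libraries. In control cells it stood at 11.4, 11.6 and 5.87 CPM in WT replicates 1, 2 and 3 and at 12, 7.73 and 12 CPM in KO. With LCA10 the values were 8.31, 16.5 and 8.40 CPM in WT and 10.7, 9.92 and 9.08 CPM in KO. With LCA50 they were 18, 14.9 and 7.90 CPM in WT and 15.7, 7.53 and 7.07 CPM in KO. The WT and KO libraries overlapped at every dose, and within WT LCA50 and KO LCA50 the highest library was more than 2 times the lowest. Averaged over doses, the change in KO against WT was -0.16 ± 0.19 (95% interval -0.55 to 0.23, edgeR adjusted p = 0.789). An exact two-sided permutation of the libraries within each dose gave p = 0.616. The interval does not reach -1, which would be a level lowered by 50%. By dose, the change was 0.14 ± 0.33 in control cells (interval -0.53 to 0.82), -0.16 ± 0.33 at LCA10 (-0.84 to 0.52) and -0.45 ± 0.33 at LCA50 (-1.13 to 0.22). Cas9 edits are often short and can leave RNA levels as they were. A count per gene holds no sequence, so it shows neither that the edit was made nor that it was not.

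Nor was Nr4a1 called in any response to LCA. In WT the changes were 0.20 ± 0.33 with LCA10 and 0.51 ± 0.33 with LCA50 (interval -0.17 to 1.18, edgeR adjusted p = 0.387). In KO they were -0.10 ± 0.33 and -0.09 ± 0.33. The difference of the LCA50 responses, KO minus WT, was -0.60 ± 0.47 (interval -1.55 to 0.36, adjusted p = 0.859). Single libraries moved the LCA50 values in both directions. With 1 library left out, KO against WT at LCA50 ranged from -0.90 (without KO LCA50 replicate 1, edgeR adjusted p = 0.146) to -0.20 (without WT LCA50 replicate 1). It was -0.25 and -0.28 without KO LCA50 replicates 3 and 2 and -0.72 without WT LCA50 replicate 3. Averaged over doses it ranged from -0.30 (without KO LCA50 replicate 1) to -0.02 (without WT LCA10 replicate 2). The LCA50 change in WT ranged from 0.24 (without WT control replicate 3) to 0.77 (without WT LCA50 replicate 3), and the difference of responses from -1.04 (without KO LCA50 replicate 1) to -0.34 (without WT control replicate 3). The LCA50 libraries with high receptor background held the lowest Nr4a1 of WT LCA50 and the highest of KO LCA50. Without both, a choice made after seeing the data, the KO against WT change at LCA50 was -1.17 ± 0.33 (edgeR adjusted p = 0.0597). The LCA50 change in WT was then 0.77 ± 0.29 (adjusted p = 0.105) and the difference of responses -1.31 ± 0.43 (adjusted p = 0.507), so no call was gained. Averaged over doses, KO against WT was then -0.40 ± 0.17 (adjusted p = 0.216). With receptor background as a covariate in place of leaving them out, the LCA50 change between KO and WT was -0.38 ± 0.35.

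Nr4a2 (chromosome 2, 57106830 to 57124003, GRCm38), a paralog better known for its part in dopamine neurons, had its lowest group means with LCA50. In KO it stood at 12.4, 11.7 and 12.3 CPM without LCA, at 9.61, 8.44 and 12.5 CPM with LCA10 and at 5.01, 8.12 and 9.62 CPM with LCA50. In WT it stood at 12.8, 7.99 and 11.3 CPM without LCA, at 9.86, 9.89 and 8.98 CPM with LCA10 and at 6.65, 12.7 and 6.32 CPM with LCA50. All 3 KO LCA50 libraries lay below all 3 KO control libraries, as 11.9% of all tested genes did in that direction, whereas the WT libraries overlapped. The LCA50 change was -0.67 ± 0.27 in KO (interval -1.22 to -0.11, unadjusted p = 0.02, edgeR adjusted p = 0.155). In WT it was -0.31 ± 0.27 (interval -0.87 to 0.24, adjusted p = 0.542). The difference of these responses was -0.35 ± 0.39 (adjusted p = 0.911). With 1 library left out, the LCA50 change in KO ranged from -0.87 (without KO LCA50 replicate 3, adjusted p = 0.0904) to -0.45 (without KO LCA50 replicate 1, adjusted p = 0.486). That in WT ranged from -0.73 (without WT LCA50 replicate 2, adjusted p = 0.185) to -0.15 (without WT LCA50 replicate 3).

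Over the 18 libraries Nr4a2 and the receptor background correlated at r = -0.53 on the log2 CPM scale, given here as a description, against 0.29 for Nr4a1 and -0.13 for Nr4a3. With that background as a covariate the LCA50 change of Nr4a2 turned to 0.17 ± 0.34 in WT and was -0.70 ± 0.26 in KO (edgeR adjusted p = 0.091), a difference of -0.87 ± 0.44 (adjusted p = 0.723). In WT the background was itself higher in every LCA50 library than in control, so covariate and dose cannot be fully told apart there. Between KO and WT, the change of Nr4a2 was 0.18 ± 0.26 in control cells, 0.09 ± 0.27 at LCA10 and -0.17 ± 0.28 at LCA50. With the covariate it was 0.33 ± 0.26, 0.05 ± 0.26 and -0.54 ± 0.32 (adjusted p = 0.487 at LCA50). The mean over doses was 0.04 ± 0.16 (interval -0.28 to 0.36, adjusted p = 0.958), the narrowest of the intervals for this gene.

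Nr4a3 (chromosome 4, 48045153 to 48086447, GRCm38), which shares the DNA-binding domain of Nr4a1 and acts beside it in T cells, had its highest levels in KO cells given LCA. KO libraries stood at 8.30, 3.39 and 4.06 CPM without LCA, at 11.8, 7.81 and 12.9 CPM with LCA10 and at 8.58, 9.11 and 8.84 CPM with LCA50. WT libraries stood at 7.23, 6.39 and 3.64 CPM without LCA, at 6.57, 6.26 and 5.08 CPM with LCA10 and at 7.08, 5.83 and 5.65 CPM with LCA50. All KO libraries lay above all WT libraries at LCA10 and at LCA50, as 7.59 and 8.37% of all tested genes did. They did not in control cells, where KO replicate 1 was the highest and KO replicate 2 the lowest of the 6. Within KO, the LCA10 and control libraries overlapped (LCA10 replicate 2 at 7.81 CPM, control replicate 1 at 8.30 CPM). All KO LCA50 libraries also lay above all KO control libraries, as 11.5% of tested genes did. Such separations are common in these data.

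The change of Nr4a3 in KO against WT was -0.14 ± 0.33 in control cells, 0.86 ± 0.31 at LCA10 (interval 0.24 to 1.48) and 0.51 ± 0.31 at LCA50 (interval -0.12 to 1.15). At LCA10 the unadjusted p was 0.00819 and the edgeR adjusted p 0.293, where 8.39% of all tested genes had an unadjusted p under 0.05. Averaged over doses the change was 0.41 ± 0.18 (adjusted p = 0.247), and the exact two-sided permutation within doses gave p = 0.079. With 1 library left out, the mean over doses ranged from 0.25 (without KO control replicate 1, adjusted p = 0.603) to 0.49 (without KO control replicate 2, adjusted p = 0.157). Within KO, the change with LCA10 was 1.06 ± 0.31, a fold of 2.08 (interval 0.43 to 1.68, unadjusted p = 0.00166, edgeR adjusted p = 0.178). It ranked 109 among the 11651 genes by p in a comparison in which 38 were called. With LCA50 it was 0.76 ± 0.31 (interval 0.12 to 1.40, adjusted p = 0.16). In WT the changes were 0.05 ± 0.32 with LCA10 and 0.10 ± 0.33 with LCA50. The comparisons within KO share the KO control libraries. The difference of responses, KO minus WT, was 1.00 ± 0.45 at LCA10 (interval 0.09 to 1.91, adjusted p = 1) and 0.66 ± 0.45 at LCA50 (adjusted p = 0.833).

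The KO control library with the most Nr4a3, replicate 1, decided the calls within KO. Without it the change was 1.54 with LCA10 (edgeR adjusted p = 0.0498) and 1.24 with LCA50 (adjusted p = 0.0329), and both passed the threshold. Without KO control replicate 2 the changes were 0.83 and 0.53. The same omissions moved the LCA10 difference of responses to 1.49 and 0.78 and the LCA50 difference to 1.14 and 0.43. With receptor background as a covariate the LCA10 change in KO was 1.04 ± 0.32 and the LCA50 change 0.76 ± 0.31.

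**Figure D3:**
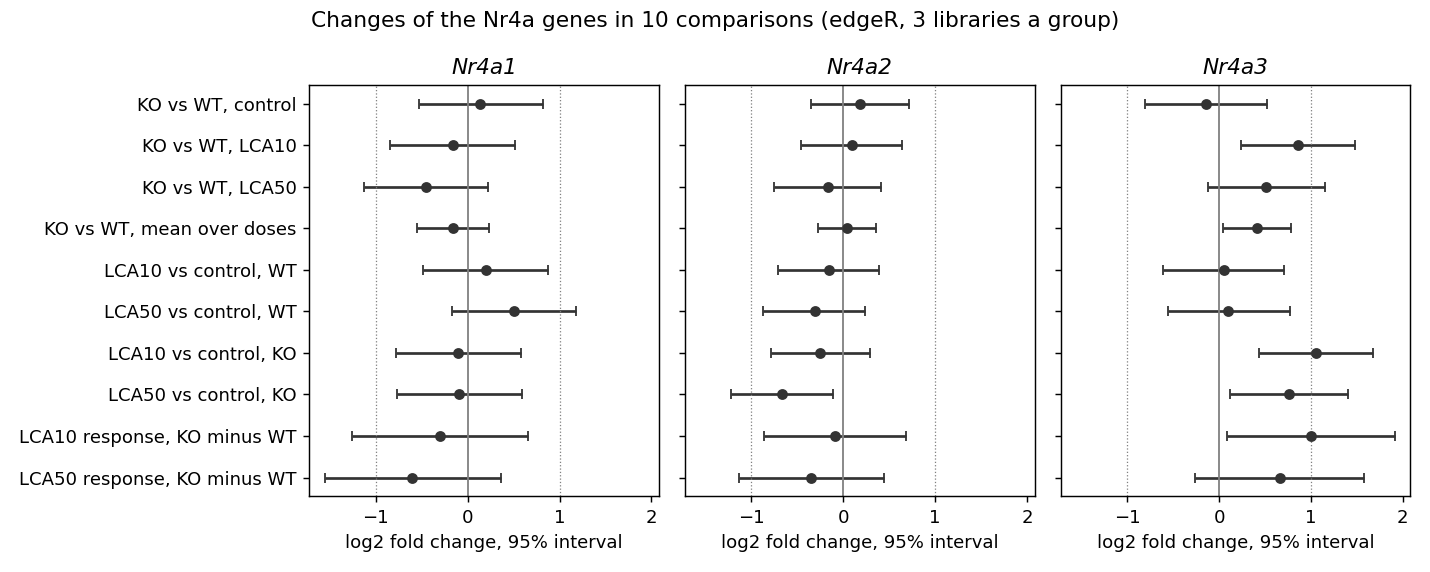
Log2 fold change of each Nr4a gene (points) with its 95% interval (bars) in the 10 comparisons, from the edgeR fit of all 18 libraries. Dotted lines mark a change of 2-fold either way. Intervals for Nr4a3 clear 0 within KO at either dose, between KO and WT at LCA10 and averaged over doses, and for the LCA10 difference of responses, and that of Nr4a2 clears 0 for LCA50 in KO, yet none passed adjustment over all genes.

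Markers of myeloid cells differed between the guides and so moved with every KO against WT comparison. The 8 markers, all listed and 6 tested, summed to 47.7 to 61.7 CPM in WT control, 36.7 to 57.5 in WT LCA10 and 51.1 to 62.1 in WT LCA50. In KO they summed to 16.6 to 20.5 CPM in control, 14.0 to 27.6 in LCA10 and 14.1 to 29.8 in LCA50. The lysozyme gene Lyz2 was the highest of them (5.87 to 40.3 CPM), Csf1r was at most 5.87 CPM, and none of the 8 was at 0 in all libraries. The 5 markers of red cells and platelets summed to 31 to 54.7 CPM in WT control and 0.377 to 6.09 CPM in KO control, with 3.32 to 12.2 and 4.25 to 21.5 CPM at LCA10 and 11.3 to 45.5 and 3.76 to 6.28 CPM at LCA50. Myeloid cells can express Nr4a genes, and the part of these cells in the Nr4a values was not tested.

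Per length, Nr4a1 and Nr4a2 were more abundant than Nr4a3. With merged exon lengths of 3.51, 4.06 and 5.99 kb, the mean over 18 libraries was 3.08 ± 1.01 CPM per kb for Nr4a1, 2.41 ± 0.59 for Nr4a2 and 1.19 ± 0.427 for Nr4a3 (SD, n = 18). These levels stood at percentiles 30.1, 25.9 and 15.7 of the 11359 tested genes with a length. Nr4a1 was the highest of the family in 13 libraries and Nr4a2 in 5, and Nr4a3 was the lowest in 17. The means of Nr4a1 and Nr4a2 differed by less than the SD of Nr4a1. Of the summed level per length, Nr4a3 took 14.9 ± 2.57, 15.6 ± 2.94 and 15.5 ± 4.11% in WT control, LCA10 and LCA50, and 12.4 ± 4.52, 25.1 ± 3.55 and 24 ± 3.55% in KO (SD, n = 3). The group mean of the summed CPM of the family ran from 26.1 ± 5.28 in WT control to 30.9 ± 4.27 in KO LCA10.

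No correlation between the 3 genes passed its test. Taken as deviations from group means in log2 CPM (18 libraries), Nr4a1 and Nr4a3 correlated at r = 0.43 (permutation p = 0.067, adjusted over 3 pairs 0.201) and rho = 0.51 (permutation p = 0.0513, adjusted 0.154). Without the 2 libraries farthest from the median of Nr4a1, r was 0.30. Nr4a1 and Nr4a2 gave r = -0.20 (permutation p = 0.594, adjusted 0.598), rho = -0.22 (permutation p = 0.503, adjusted 0.63) and r = -0.37 without 2 libraries. Nr4a2 and Nr4a3 gave r = 0.12 (permutation p = 0.598, adjusted 0.598), rho = 0.13 (permutation p = 0.63, adjusted 0.63) and r = 0.19 without 2 libraries. At the mean count of a group, counting error alone has a coefficient of variation of 12.3 to 18.9%, while libraries of a group varied by 3.0 to 50.7%.

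Among 9759 genes with a mean of at least 5 CPM, those most like each member over the 18 libraries were no other member. Nr4a1 was most like the zinc finger gene Zfp780b (r = 0.75), the vesicle sorting gene Vps33b (0.73) and the noncoding Pvt1 (0.71). Among the genes most like Nr4a2 were the RNA-binding Khdrbs1 (r = 0.81) and the cholesterol synthesis gene Nsdhl (0.80). Nsdhl averaged 45.7, 37.9 and 27.2 CPM in WT control, LCA10 and LCA50 and 45.2, 40.0 and 27.9 CPM in KO. Nr4a3 was most like Pomgnt1 (r = 0.75), the ribosomal protein gene Rpl6 (0.72) and the interferon gamma receptor chain Ifngr2 (0.71), the last with 49.0, 54.3 and 57.7 CPM in WT and 53.6, 65.7 and 71.1 CPM in KO. These are the highest of many correlations and are a description only.

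Within the nuclear receptor family, the Nr4a genes lay in the middle of those expressed. Of 49 mouse receptor genes, all listed, 26 were tested. The oxysterol receptor Nr1h2 led at 35.7 ± 2.81 CPM per kb, followed by Rxrb (12.4 ± 1.33), the glucocorticoid receptor Nr3c1 (11.5 ± 1.18), Rara (9.66 ± 1.59) and Nr2f6 (5.94 ± 1.32; SD, n = 18). Nr4a1 ranked 9, between Esrra (4.03 ± 0.858) and Pparg (2.97 ± 1.44), Nr4a2 ranked 12, between Nr2c1 (2.87 ± 0.464) and Thra (1.37 ± 0.46), and Nr4a3 ranked 15, just above Rora (1.15 ± 0.36). Each of these neighbours differed from the Nr4a gene beside it by less than the larger SD, apart from Thra below Nr4a2. Nr1h4, which is not the only nuclear receptor for bile acids, had 7 counts over all libraries. Of the 23 tested receptors outside the Nr4a family, 2 rose and 0 fell with LCA50 in WT (median 0.27, against 0.01 for all genes tested), and 2 rose and 0 fell in KO (median 0.07, against 0.00). Over all tested genes, 8.58% were called in WT and 6.35% in KO. The retinoid X receptor Rxra, with which Nr4a1 and Nr4a2 can pair, rose by 1.77 ± 0.30 in WT (edgeR adjusted p = 0.000607) and 1.89 ± 0.29 in KO (adjusted p = 0.000279). Rara rose in WT (0.60 ± 0.14, adjusted p = 0.00365) and Esr1 in KO (1.19 ± 0.35, adjusted p = 0.0339), the latter losing its call without KO control replicate 2 (1.07) or 3 (1.06) or KO LCA50 replicate 1 (1.11) or 3 (1.05). Between KO and WT over doses, 1 of 23 was called, the lipid receptor Pparg (0.88 ± 0.19, adjusted p = 0.00222), where 5.15% of all tested genes were.

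**Figure D4:**
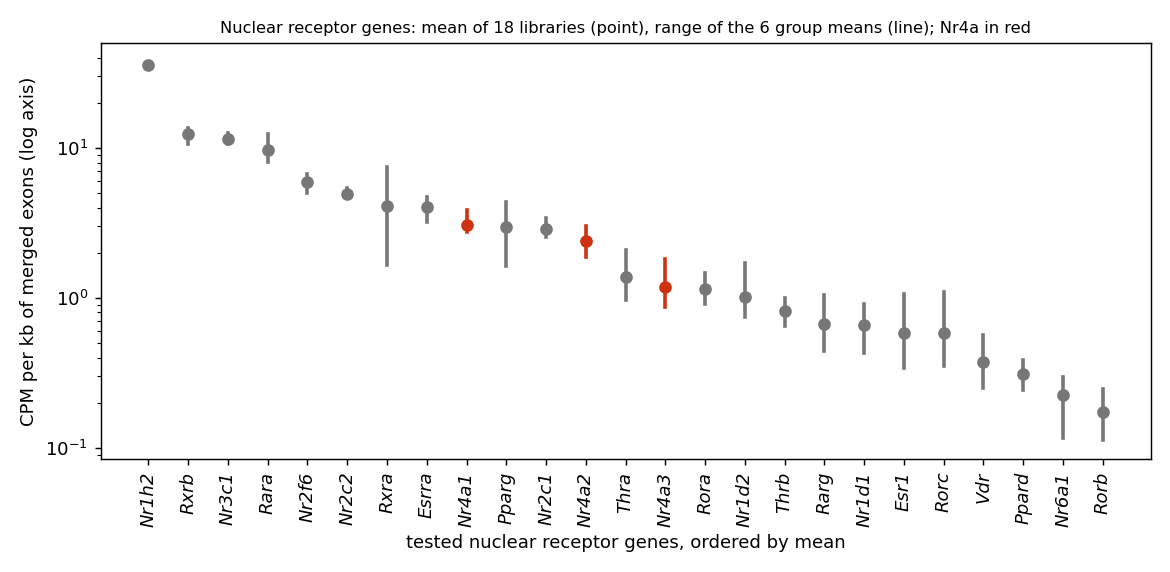
Level of 25 of the 26 tested nuclear receptor genes in CPM per kb of merged exons (log axis), ordered by the mean of 18 libraries (points), with lines from the lowest to the highest of the 6 group means. Nr4a1, Nr4a2 and Nr4a3, in red, average 3.08, 2.41 and 1.19.

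The 22 listed upstream regulators of Nr4a transcription, all tested, include class II histone deacetylases and so are not all activators. In KO against WT averaged over doses, 2 rose, 3 fell and 17 did not pass the test. The median was -0.02, against 0.00 for all genes tested, and 5.15% of all genes were called. Crem, a cAMP-responsive relative of CREB, rose by 0.42 ± 0.05 (edgeR adjusted p = 2.04e-06), from 61.3 to 70.4 CPM over the 9 WT libraries to 78.6 to 100 CPM over the 9 KO libraries. The calcineurin target Nfatc1 fell (-0.31 ± 0.05, adjusted p = 2.72e-05) and so did the kinase Prkd2, which exports class II histone deacetylases from the nucleus (-0.22 ± 0.05, adjusted p = 0.00378). Mef2a rose by 0.20 ± 0.06 (adjusted p = 0.0319). Mef2c, also a gene of B and myeloid cells, fell but was near 0, at most 3.22 CPM in WT and 1.67 CPM in KO. Mef2a and Mef2c lost their calls in 11 and 9 of 24 other settings, most of them with 1 library left out. With LCA50, 0 of the 22 were called in WT, where 8.58% of all genes were. An unadjusted edgeR p under 0.05 was found for 4, and for 22.2% of all genes. Prkd2 stood at -0.03 ± 0.08 and Ppp3r1 at -0.04 ± 0.11. In KO 0 rose and 5 fell (median -0.01), where 6.35% of all genes were called. The 5 included the deacetylases Hdac7 (-0.67 ± 0.16, adjusted p = 0.0176) and Hdac5 (-0.72 ± 0.20, adjusted p = 0.0306) and the SRF partner Elk4 (-0.74 ± 0.20, adjusted p = 0.0213). Hdac7 lost its call without any 1 of the KO control libraries (-0.67, adjusted p = 0.0571 to 0.068), and its change was -0.42 without KO LCA50 replicate 1. Hdac5 (-0.44) and Elk4 (-0.61) lost theirs without KO LCA50 replicate 1, and each without KO control replicate 3 (-0.59 and -0.67). Hdac5 also lost it without KO control replicate 1 (-0.68), and Elk4 without KO control replicate 2 (-0.76) or KO LCA50 replicate 3 (-0.62).

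The other immediate early and receptor-induced factors were tested in 20 of 22 cases. Between KO and WT over doses, 3 rose and 1 fell (median 0.09, against 0.00 for all genes), where 5.15% of all genes were called. Bhlhe40 rose by 0.36 ± 0.04 (edgeR adjusted p = 4.33e-07), Batf3 by 0.44 ± 0.07 (adjusted p = 2.96e-05) and Irf4, whose induction scales with receptor signal, by 0.30 ± 0.06 (adjusted p = 0.000493). Irf4 stood at 110 to 137 CPM over the WT libraries and 130 to 168 CPM over the KO libraries, without overlap in control and LCA50 cells and with overlap at LCA10. Egr1 fell (-0.52 ± 0.16, adjusted p = 0.0483), a call that DESeq2 did not make and that was lost in 12 of 24 other settings. With LCA50, 5 rose and 1 fell in WT (median 0.24, against 0.01) and 4 rose and 0 fell in KO (median 0.32, against 0.00). The shares called over all tested genes were 8.58% in WT and 6.35% in KO. Fosl2, an AP-1 subunit, rose by 1.05 ± 0.18 in WT (adjusted p = 0.000158) and 0.95 ± 0.17 in KO (adjusted p = 0.000405). The repressor Nfil3 rose by 0.59 ± 0.09 in WT (adjusted p = 4.69e-05) and by 0.40 ± 0.09 in KO (adjusted p = 0.00475), and Bhlhe40 by 0.31 ± 0.08 and 0.34 ± 0.08 (adjusted p = 0.00756 and 0.00446). Batf fell in WT (-0.62 ± 0.15, adjusted p = 0.00523). With receptor background as a covariate Bhlhe40 (0.19) and Batf (-0.43) lost their calls in WT, as they did without WT control replicate 3 (Bhlhe40 0.26) and without WT LCA50 replicate 3 (Batf -0.51). In KO, Bhlhe40 lost its call without KO LCA50 replicate 1 (0.23) and Nfil3 without KO control replicate 1 (0.30).

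Partners and cofactors of NR4A proteins were tested in 18 of 19 cases, and none was called between KO and WT over doses by edgeR (3 at an unadjusted p under 0.05). Over all tested genes, 5.15% were called there. The most abundant per length, the corepressor Trim28 and the survival gene Bcl2, stood at 0.03 ± 0.04 and -0.07 ± 0.05. With LCA50, 3 rose and 1 fell in WT (median 0.12, against 0.01) and 2 rose and 1 fell in KO (median 0.01, against 0.00). The shares called over all tested genes were 8.58% in WT and 6.35% in KO. Beside Rxra, Bcl2, whose protein Nur77 can bind at mitochondria, rose by 0.49 ± 0.08 in WT (edgeR adjusted p = 0.000192) and 0.39 ± 0.08 in KO (adjusted p = 0.00297). The coactivator Ncoa3 fell by 0.45 ± 0.09 in WT (adjusted p = 0.00106) and by 0.39 ± 0.09 in KO (adjusted p = 0.00578). Bcl2 (0.32) lost its call in WT with receptor background as a covariate, and its change in KO was 0.25 without KO LCA50 replicate 1.

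Genes linked to NR4A activity in T cells were tested in 20 of 22 cases, and in KO against WT over doses 2 rose and 2 fell (median -0.09, against 0.00). Over all tested genes, 5.15% were called there. The muscle-type enolase gene Eno3 fell by 0.52 ± 0.09 (edgeR adjusted p = 8.43e-05). It stood at 33.6 to 51.7 CPM (median 37.1) over the 9 WT libraries and 23.7 to 30 CPM (median 27.3) over the 9 KO libraries, which did not overlap. The inhibitory receptor gene Pdcd1 fell by 0.55 ± 0.11 (adjusted p = 0.00167), from 41.9 to 72.9 CPM in WT to 19.3 to 45 CPM in KO, with no overlap at any dose. The costimulatory receptor Tnfrsf9 rose (0.30 ± 0.05, adjusted p = 0.000416), as did Ikzf2 (0.43 ± 0.11, adjusted p = 0.017), which lost its call without WT control replicate 3 (0.38) or WT LCA10 replicate 2 (0.37). Eno3, Pdcd1 and Tnfrsf9 kept their calls in all 24 other settings, which reuse the same libraries. The list was chosen with earlier results of these data known, so these calls are a description and no independent test of NR4A activity. With LCA50, 4 rose and 2 fell in WT (median 0.12, against 0.01) and 4 rose and 1 fell in KO (median 0.13, against 0.00). The shares called over all tested genes were 8.58% in WT and 6.35% in KO. Tnfrsf9 rose by 0.73 ± 0.09 in WT and 0.76 ± 0.09 in KO (adjusted p = 7.9e-06 and 3.23e-06), and Ctla4 fell by 0.65 ± 0.09 and 0.39 ± 0.09 (adjusted p = 6.45e-06 and 0.0044). The exhaustion marker Havcr2 rose by 0.83 ± 0.21 and 1.28 ± 0.21 (adjusted p = 0.00958 and 0.000173), Runx3 in WT by 0.30 ± 0.09 and Tnfrsf18 in KO by 0.41 ± 0.09 (adjusted p = 0.0298 and 0.00385), and Entpd1 fell in WT by 0.85 ± 0.17 (adjusted p = 0.00106). Havcr2 lost its call in WT with the covariate (0.85) and without WT LCA50 replicate 3 (0.77) or WT control replicate 2 (0.76), and Tnfrsf18 in KO without KO LCA50 replicate 1 (0.25). Runx3 lost its call without WT control replicate 1 (0.32) or 2 (0.19) or WT LCA50 replicate 2 (0.25) or 3 (0.30).

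**Figure D5:**
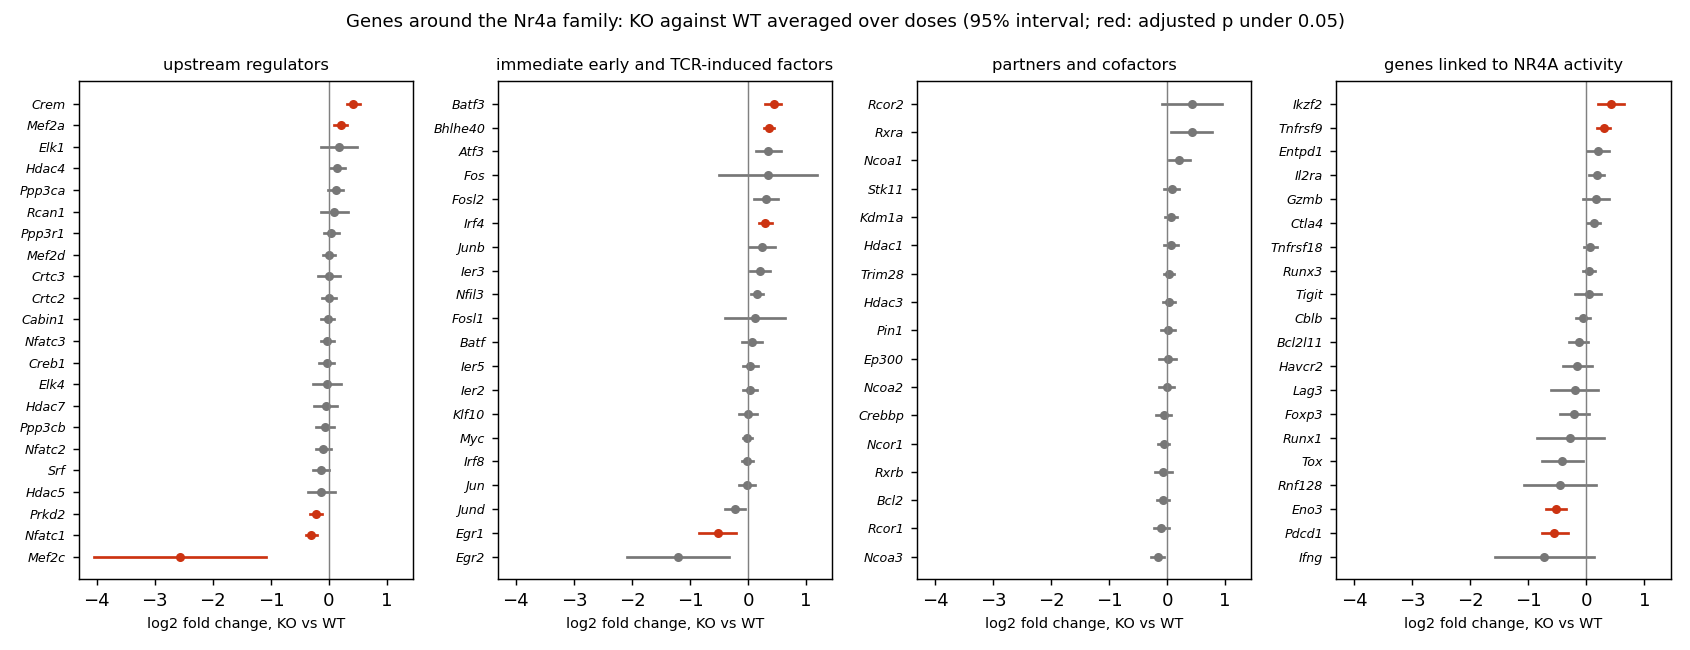
Log2 fold change of KO against WT averaged over doses (points) with its 95% interval (bars) for tested genes of the 4 lists around the Nr4a family, all but 1 of them shown. Genes with an adjusted p under 0.05 are red. Among genes linked to NR4A activity, Pdcd1 (-0.55) and Eno3 (-0.52) are the called genes below 0, and Ifng lies lower at -0.72 but was not called. Crem (0.42) is the highest of the upstream regulators.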

How the data were processed

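RNA was sequenced from 18 libraries, and the authors deposited a table of raw counts for 24537 gene symbols, of which 2231 had no count. Per the submitters' processing notes, STAR, HOMER, DESeq2, GRCm38 and mm10 were used, with no versions or roles. Counting options and strandedness are not given in the sources used here. No other gene overlaps Nr4a1, Nr4a2 or Nr4a3 in GENCODE M21. The variance between libraries of a group was 2.44 to 8.56 times that of counting error, so none was a copy of another in its group. Libraries of different groups were not checked in this way.

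From the counts, edgeR 4.0.16 (R 4.3.3) fitted 1 mean for each of 6 groups after filterByExpr and TMM scaling, with a robust quasi-likelihood fit and 10 contrasts. A standard error was taken as the size of the change divided by root F. CPM use TMM-scaled library sizes, log2 CPM a prior count of 2, and levels per kb merged GENCODE exons. The code was tested on simulated data. DESeq2 1.42.0 was an alternative. The members and lists were chosen with earlier results of these data known. Named genes were, per list, up to 3 called members each way, or else the 2 most abundant per length, and the 3 genes most like each member. A few genes the rule names are not reported here.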

Additional observations from a re-analysis of the deposited data

How the results depend on the processing

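Of 165 values of a member in a comparison under settings other than leaving out 1 library, 163 kept their direction and none was called (lowest adjusted p = 0.0597). The exceptions, with receptor background as a covariate, were Nr4a2 with LCA50 in WT (0.17, from -0.31) and Nr4a2 in KO against WT over doses (-0.05, from 0.04). In WT that background was itself higher with LCA50. Of 252 values with 1 library left out, 28 changed direction and 2 gained a call, both of Nr4a3 in KO.

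With 1 library left out, Nr4a1 ranged from -0.11 to 0.32 for KO against WT in control cells, -0.33 to 0.24 at LCA10, -0.20 to 0.37 for LCA10 in WT, -0.28 to 0.00 for LCA10 and -0.54 to 0.11 for LCA50 in KO, and -0.48 to 0.10 for the LCA10 difference of responses. Nr4a2 ranged from -0.08 to 0.21 for KO against WT at LCA10, -0.37 to 0.24 at LCA50, -0.03 to 0.17 over doses, and -0.27 to 0.09 and -0.55 to 0.06 for the LCA10 and LCA50 differences. Nr4a3 ranged from -0.62 to 0.09 for KO against WT in control cells, -0.19 to 0.25 for LCA10 and -0.14 to 0.29 for LCA50 in WT, and 0.83 to 1.54 and 0.53 to 1.24 for LCA10 and LCA50 in KO.

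Counts of called genes over the whole table moved more. With no filter, KO against WT called 141 genes in control cells (from 73), 142 at LCA10 (from 77) and 357 at LCA50 (from 226). LCA10 called 104 in WT (from 45) and 103 in KO (from 38), and the LCA10 and LCA50 differences 3 and 3 (from 0). With the covariate, KO against WT at LCA10 called 124, LCA10 79 in WT and 63 in KO, LCA50 in WT 272 (from 1000) and the LCA50 difference 6. DESeq2 called 70 for LCA10 in WT, 62 in KO and 1 for the LCA50 difference. Without both LCA50 libraries of high background, chosen after seeing the data, LCA50 in KO called 428 (from 740). With 1 library left out, KO against WT called 28 to 53 in control cells, 43 to 62 at LCA10 and 106 to 370 at LCA50. LCA10 called 4 to 57 in WT and 6 to 45 in KO, LCA50 522 to 1027 in WT and 384 to 814 in KO, and the LCA50 difference 0 to 6. The cause was not tested. The lowest count for LCA10 in WT came without WT LCA10 replicate 2. The abundant regulator Ppp3r1 turned from -0.04 to 0.03 in WT LCA50 without both libraries, and ranged from -0.17 to 0.06 with 1 left out, and Prkd2 from -0.09 to 0.04.

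Of 45 pairs of libraries with the same replicate number, 0 deviated together above r = 0.1 (mean -0.00773). Of 90 pairs with other numbers, 4 did (highest 0.192, mean 0.00384). Deviations from a group mean sum to 0, which ties the mean of the other-number pairs to that of the same-number pairs. It is therefore no separate comparison. The correlations cannot show whether libraries of the same number share an animal or culture, since such sharing may leave little trace in the counts. With the replicate block, LCA50 called 930 genes in WT and 684 in KO, KO against WT over doses 569, and the LCA10 change of Nr4a3 in KO was 1.09 (adjusted p = 0.135). With 18 to 84 counts a library, the standard error of a change between 2 groups was 0.26 to 0.33 for these genes, which limits what could be detected.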
